A study of Mus musculus with 16 samples.

Results

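The genes described here were 10 markers of astrocytes in the adult brain, most of which help keep the fluid around neurons and axons constant. They were taken by name: the water channel Aqp4, the glutamate transporters Slc1a2 and Slc1a3, the connexin Gja1, the folate enzyme Aldh1l1, glutamine synthetase Glul, the potassium channel Kcnj10, the calcium-binding protein S100b, the sodium pump subunit Atp1b2 and the bicarbonate transporter Slc4a4. The array named 18749 genes, and these 10 were measured by 18 probes. All 18 probes were well above background on all 16 arrays and were tested, and no spot of theirs was saturated.

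RNA of the corpus callosum, the large white matter tract between the hemispheres, was measured on single-colour Agilent whole mouse genome arrays, with 1 sample per array. All animals were wild-type C57BL/6 males, aged 7 to 8 weeks at inclusion per the methods, which match the controls in age to the group with 4 weeks of CPZ. The age of the other groups at sampling is not given in the sources used here. The 4 groups were untreated mice on normal chow (n = 3), mice fed cuprizone (CPZ) for 2 weeks (n = 3) or for 4 weeks (n = 4), and mice returned to regular diet after 4 weeks of CPZ (n = 6). Oligodendrocytes, the cells that wrap axons in myelin, die in mice that eat CPZ, a compound that binds copper, and new sheaths are made on normal food. The chow held 0.2 to 0.4% CPZ per the labels and 0.2% per the methods. Regular diet was given for 2 days or for 2 weeks, with 3 arrays at each time, per the study's description. The labels do not separate these times, so the 6 arrays form 1 group here whose spread may hold a difference of time.

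Astrocytes clear glutamate from the extracellular space with the transporters GLAST (Slc1a3) and GLT-1 (Slc1a2) and turn it into glutamine with glutamine synthetase. They take up potassium through the inward rectifier Kcnj10 and the sodium pump, move water through Aqp4 at their end-feet on blood vessels, exchange bicarbonate through Slc4a4, and spread ions and metabolites from cell to cell through gap junctions of Gja1. Several of these genes are also known in other cells: Glul, Kcnj10 and S100b in oligodendrocytes, and Aqp4 and Gja1 in the ependyma that lines the ventricles. In bulk tissue, fewer cells of a type and less RNA per cell cannot be told apart.

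The deposited signals of each array were put on a log2 scale relative to that array's 75th percentile, so that a level of 0 equals the 75th percentile and 1 unit is a factor of 2. A level is given for the brightest probe of a gene. Groups were compared with limma. Differentially expressed, or called, means here a fold of at least 2 together with a p under 0.05 after adjustment by Benjamini and Hochberg.

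Some arrays stood apart from their group. The share of probes well above background lay between 57.3 and 72.2%, and the lowest shares belonged to untreated 1 and CPZ 4 weeks 2 and 3, which also deviated from their groups alike. The 18 tested myelin and oligodendrocyte markers were all above background on the 3 untreated arrays. On regular diet, arrays 1 and 2 stood apart in microglia genes, with a summed level of 9.46 and 9.81 against 6.43 to 6.98 on the other 4. Genes of the choroid plexus and ependyma differed widely within every group, with a summed level of 3.29 to 5.31 in untreated, 2.59 to 5.27 at 2 weeks, 1.87 to 6.23 at 4 weeks and 2.49 to 5.86 on regular diet. The scanner file recorded under a sample belonged, by its values, to another sample's column of the series' value table for 14 of the 16 arrays. Groups here follow the columns of that table, and the number that each file carries equals the order of its column for 16 of 16 arrays. In that table the median over the 3 columns of untreated samples was 0 for 100% of probes, against at most 52.1% for any other 3 columns. The comparisons of the 10 genes, of Gjb6, Kcnj16 and Gfap and of 4 marker lists were repeated under the recorded assignment. There limma called 0 genes of the whole array in all 4 comparisons, while 231, 597, 1981 and 1366 reached an unadjusted p below 0.05. The median difference of the myelin list from untreated was then 1.13 at 2 weeks, 0.50 at 4 weeks and -1.71 on regular diet. On regular diet 7 of its 18 genes were then lower at an unadjusted p under 0.05 (6.2% of all genes). With the groups used here these medians were -3.13, -2.51 and -1.44, and 1 of 18 was lower on regular diet (4.3%). Against CPZ 4 weeks, regular diet had a median of -2.21 as recorded, with 14 of 18 lower (3.86%). It was 1.03 with the groups used here, with 0 lower and 1 higher (15.5%).

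The promoters of 4 genes are shown first. Slc1a3 and Aldh1l1 were the most closely correlated pair over the arrays, and Slc1a2 and Glul, which also correlated, take up glutamate and turn it into glutamine. Gja1 and Kcnj10 correlated as closely as the second pair and are not shown. The 250 bases before the annotated start were read 5′ to 3′ on the gene's strand from RefSeq (GRCm38.p6), which held promoters for 8 of the 10 genes. Capitals mark matches, on either strand, to the CCAAT box (CCAAT) or to the STAT motif (TTCNNNGAA); the AP-1 motif (TGANTCA) was also searched.
Slc1a3 promoter: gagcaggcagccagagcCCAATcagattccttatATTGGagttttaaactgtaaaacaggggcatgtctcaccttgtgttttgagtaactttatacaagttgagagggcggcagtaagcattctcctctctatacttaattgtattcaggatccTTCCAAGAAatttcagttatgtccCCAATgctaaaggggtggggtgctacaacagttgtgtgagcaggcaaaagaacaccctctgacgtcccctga
Aldh1l1 promoter: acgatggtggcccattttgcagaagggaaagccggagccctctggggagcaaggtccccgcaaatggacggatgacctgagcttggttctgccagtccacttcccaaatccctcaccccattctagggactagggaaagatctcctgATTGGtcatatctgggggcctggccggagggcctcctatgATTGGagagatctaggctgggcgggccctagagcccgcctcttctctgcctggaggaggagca
Slc1a2 promoter: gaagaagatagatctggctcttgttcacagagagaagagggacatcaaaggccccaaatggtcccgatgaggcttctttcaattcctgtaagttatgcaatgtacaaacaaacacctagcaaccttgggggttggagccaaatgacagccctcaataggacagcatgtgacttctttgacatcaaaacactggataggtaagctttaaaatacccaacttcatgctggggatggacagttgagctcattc
Glul promoter: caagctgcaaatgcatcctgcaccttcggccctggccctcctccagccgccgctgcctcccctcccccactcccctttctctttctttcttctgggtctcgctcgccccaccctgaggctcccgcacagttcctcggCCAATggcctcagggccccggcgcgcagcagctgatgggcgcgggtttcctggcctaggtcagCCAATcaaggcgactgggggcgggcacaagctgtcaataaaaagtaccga

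The Slc1a3 stretch lies at chr15:8710808-8711057 on the minus strand, and the others lie on the plus strand, Aldh1l1 at chr6:90550543-90550792, Slc1a2 at chr2:102706188-102706437 and Glul at chr1:153899679-153899928. The CCAAT box had 3 matches before Slc1a3, 2 before Aldh1l1, 2 before Glul and 0 before Slc1a2. Among the genes not shown it had 2 before Kcnj10, 2 before S100b, 0 before Gja1 and 1 before 1 of the 2 starts of Slc4a4. Such a match was found in 33.8% of all 32851 promoter stretches of this length. The STAT motif had 1 match, before Slc1a3, at 96 bases from the start, and was found in 7.02% of all stretches. The AP-1 motif, found in 6.75% of all, had no match in these 4 stretches and 1 match before Gja1. A match is a run of letters and not a binding site.

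The first question was whether early demyelination changed the astrocyte genes. After 2 weeks of CPZ, GLAST and Aldh1l1 lay above the untreated arrays while S100b and glutamine synthetase lay below them, and the other 6 genes overlapped. None of the 10 genes was called, beside 0.211% of the 20398 genes tested. With an unadjusted p under 0.05 there were 3, Slc1a3 and Aldh1l1 higher and S100b lower, against 9.53% of all genes. The groups did not overlap for 4 of the 10, against 16.7% of all genes. The median log2 difference of the 10 genes was -0.24, beside 0.05 over all genes, and 6 were below 0 and 4 above.

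**Figure D1:**
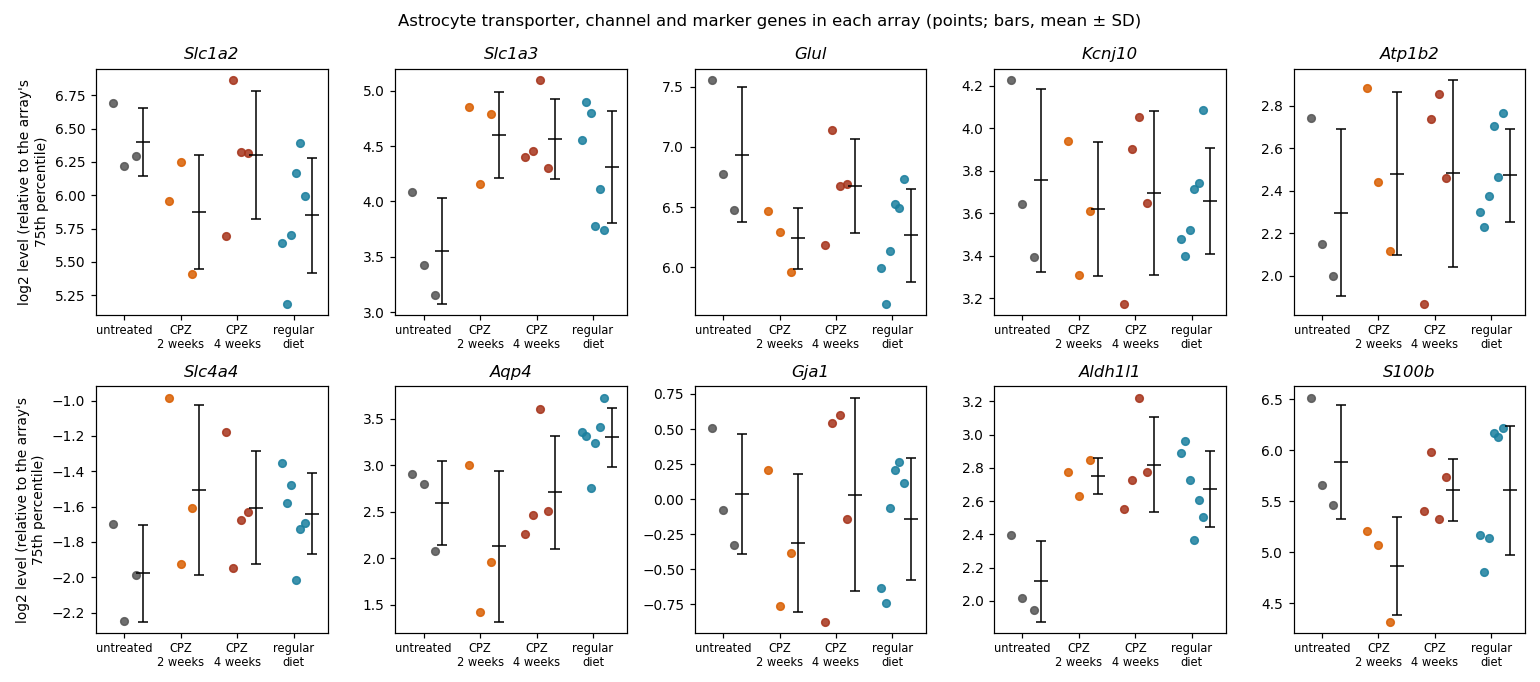
Level of each of the 10 genes (brightest probe) in each of the 16 arrays, on a log2 scale where 0 is the array's 75th percentile. Points are arrays, in order of replicate number, and bars to the right are the mean ± SD of the group; the mean of Slc1a3 and of Aldh1l1 is lowest in untreated arrays and that of S100b is lowest at 2 weeks, while single arrays on regular diet overlap with those groups.

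Slc1a3, the glutamate transporter that is also strong in radial and Bergmann glia, had levels of 4.08, 3.43 and 3.15 in the 3 untreated arrays and of 4.86, 4.16 and 4.79 at 2 weeks of CPZ. Every array at 2 weeks was above every untreated array, although 4.16 was close to the highest untreated value. This was a log2 difference of 1.05 (95% interval 0.32 to 1.77, SE 0.32), a fold of 2.07, with an adjusted p of 0.24 by limma.

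Aldh1l1, an enzyme of folate metabolism used as a general astrocyte marker, had levels of 2.39, 2.02 and 1.94 in untreated arrays and of 2.78, 2.63 and 2.85 at 2 weeks. The groups were separate and the 3 CPZ arrays lay close together. They differed by 0.63 on the log2 scale (95% interval 0.14 to 1.13), with an adjusted p of 0.33 by limma.

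S100b, a calcium-binding protein of astrocytes and of myelinating oligodendrocytes, had levels of 6.52, 5.66 and 5.47 in untreated arrays and of 5.21, 5.07 and 4.32 at 2 weeks. All CPZ arrays were below all untreated arrays, and 1 of them was far below. The means differed by -1.01 on the log2 scale (95% interval -1.79 to -0.23), with an adjusted p of 0.32 by limma. The summed level of the myelin list was 9.39 to 10.5 in untreated arrays and 5.28 to 8.32 at 2 weeks, where 15 of its 18 genes had an unadjusted p under 0.05 and all 15 were lower, against 5.03% of all genes that were lower. The part of oligodendrocyte RNA in the S100b difference was not tested. With arrays weighted by their fit, a setting chosen after seeing the data, Slc1a3 and S100b passed the threshold at 2 weeks, at 1.497 (adjusted p 0.00011) and -1.27 (adjusted p 0.0009) by limma. Under the recorded assignment of scanner files, both differences had the opposite sign, at -0.37 and 0.56.

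Glul, which makes glutamine from glutamate, had levels of 7.56, 6.77 and 6.48 in untreated arrays and of 6.46, 6.30 and 5.97 at 2 weeks. The groups were barely separate, with 6.48 as the lowest untreated and 6.46 as the highest CPZ value. The means differed by -0.69 (95% interval -1.43 to 0.04), with an adjusted p of 0.59, and by -0.38 without untreated 1. The second, dimmer probe of Glul differed by -0.78, with overlapping groups.

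The other 6 genes had differences between -0.53 and 0.47, and their 95% intervals all held 0. Slc1a2, the transporter that carries most glutamate uptake in the forebrain, had a mean level of 6.40 ± 0.25 (SD, n = 3) in untreated arrays and 5.87 ± 0.43 (SD, n = 3) at 2 weeks. Its 4 probes differed between -0.65 and -0.44, and for 1 of the dimmer ones the groups did not overlap. Aqp4 had 2.59 ± 0.45 and 2.13 ± 0.81, and Gja1 had 0.03 ± 0.43 and -0.31 ± 0.49. Kcnj10 had 3.75 ± 0.43 and 3.62 ± 0.31, Atp1b2 had 2.30 ± 0.39 and 2.48 ± 0.38, and Slc4a4 had -1.98 ± 0.27 and -1.51 ± 0.48 (each SD, n = 3). The interval was -1.53 to 0.60 for Aqp4 and -1.32 to 0.62 for Gja1, and both intervals hold a 2-fold lower level.

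**Figure D2:**
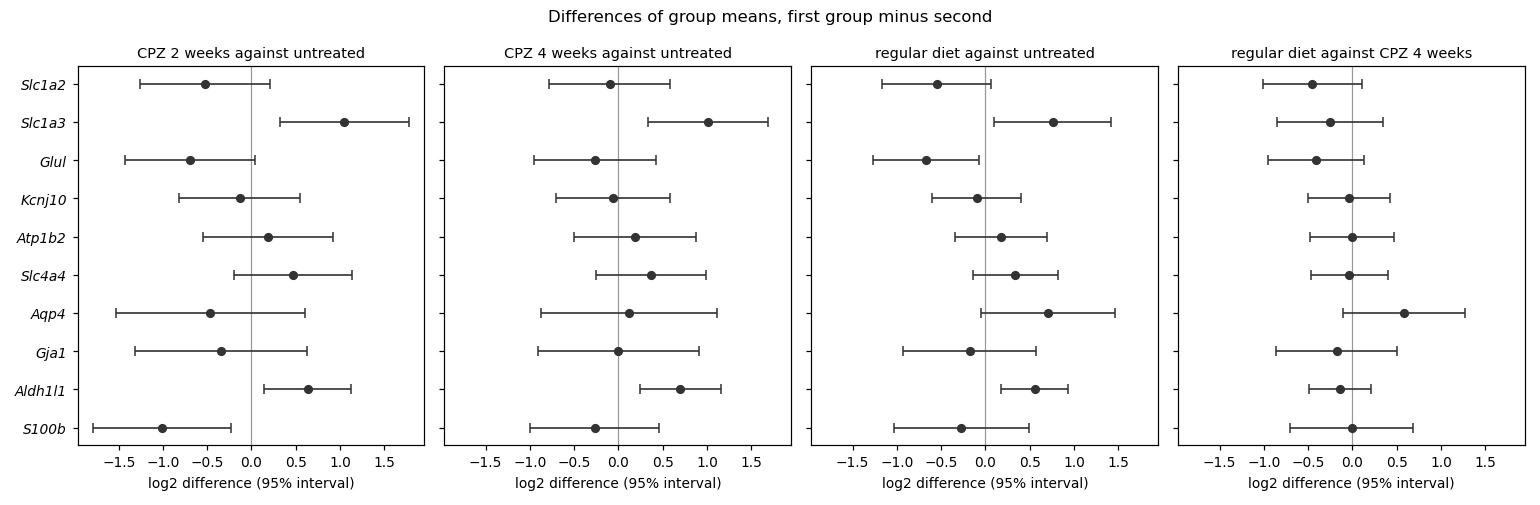
Log2 difference of group means for each gene (brightest probe) in 4 comparisons, first group minus second, with the 95% interval of limma. Intervals of Slc1a3 and Aldh1l1 lie above 0 in all 3 comparisons with untreated arrays, and all intervals of regular diet against CPZ 4 weeks hold 0.

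After 4 weeks of CPZ, the time of full demyelination in this model, GLAST and Aldh1l1 again lay above all untreated arrays, and the remaining 8 genes overlapped with them. None of the 10 genes was called, beside 0.167% of 20398 genes. Those with an unadjusted p under 0.05 were the same 2 genes, against 10% of all genes, and the groups did not overlap for these 2, against 9.7% of all genes. The median log2 difference was 0.06, beside -0.04 over all genes, with 5 genes above 0 and 5 below. The comparison shares its untreated arrays with the one at 2 weeks.

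Slc1a3 had levels of 4.40, 4.46, 5.10 and 4.30 at 4 weeks, all above the highest untreated value of 4.08. This gave a log2 difference of 1.01 (95% interval 0.33 to 1.69, SE 0.30), a fold of 2.02, with an adjusted p of 0.23 by limma. With the slide as a fixed block, Slc1a3 passed the threshold with a log2 difference of 1.34 and an adjusted p of 0.037. Under the recorded assignment it was -0.68. Of the slides that held both groups, the difference was 1.67 on slide 2 and 1.25 on slide 3. Each slide held only 1 array of each of these groups, and the CPZ array on slide 2 was CPZ 4 weeks 3.

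Aldh1l1 had levels of 2.55, 2.72, 3.22 and 2.77 at 4 weeks, also all above the untreated arrays. Their mean was higher by 0.70 on the log2 scale (95% interval 0.24 to 1.16), with an adjusted p of 0.22. Within slides it was 1.21 on slide 2 and 0.61 on slide 3, each again 1 array against 1 array. Slc1a3 and Aldh1l1 were highest on the same array, CPZ 4 weeks 3, which was one of those that stood apart. Without untreated 1 and CPZ 4 weeks 2 and 3, the median of the 10 genes was -0.02 and again none was called.

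The other 8 genes differed between -0.27 and 0.37 at 4 weeks. S100b had 5.41, 5.98, 5.33 and 5.74, which was a mean of 5.61 ± 0.30 (SD, n = 4) against 5.88 ± 0.56 in untreated arrays. The myelin list was still low on these arrays, with a summed level of 5.74 to 8.80 and a median log2 difference of -2.51, and 14 of its 18 genes were lower at an unadjusted p under 0.05, against 4.83% of all genes. Glul had 6.67 ± 0.39, Slc1a2 had 6.30 ± 0.48, Aqp4 had 2.71 ± 0.61 and Gja1 had 0.03 ± 0.69. Kcnj10 had 3.69 ± 0.38, Atp1b2 had 2.48 ± 0.44 and Slc4a4 had -1.61 ± 0.32 (each SD, n = 4). The 4 probes of Slc1a2 did not give 1 direction here, with differences from -0.49 to 0.14.

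On regular diet, the mean levels of GLAST and Aldh1l1 lay above those of untreated arrays, those of glutamine synthetase and GLT-1 lay below, and that of Aqp4 lay above, but by the brightest probe all 10 genes overlapped with untreated arrays. None was called, beside 0.854% of 20602 genes. Those with an unadjusted p under 0.05 were 3, against 10.6% of all genes: Aldh1l1 and Slc1a3 higher and Glul lower. The groups did not overlap for 0 of the 10, against 8.53% of all genes. The median log2 difference was 0.04, beside -0.01 over all genes. Arrays 1 to 3 and arrays 4 to 6 on regular diet did not overlap for 9 of the 10 genes (26.1% of all genes). Except for Aqp4, the means and intervals on regular diet thus describe 2 sets of arrays as pooled.

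Aldh1l1 ranged from 2.36 to 2.96 over the 6 arrays with a median of 2.67, and its lowest array fell below untreated 1. The log2 difference from untreated was 0.56 (95% interval 0.17 to 0.94), with an adjusted p of 0.24 by limma. Slc1a3 ranged from 3.74 to 4.90 with a median of 4.33, and 2 of its 6 arrays were below untreated 1. Its mean differed by 0.76 (95% interval 0.10 to 1.42), with an adjusted p of 0.40. Within slides it was -0.31 on slide 1, 0.89 on slide 2 and 1.18 on slide 3, each with 1 untreated array.

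Glul ranged from 5.70 to 6.73 on regular diet with a median of 6.32, which overlapped with the lowest untreated array only. The mean differed by -0.67 (95% interval -1.27 to -0.08), with an adjusted p of 0.41, by -0.36 without untreated 1 and by -0.15 with array weights (adjusted p 0.61 by limma). It was below 0 within all 3 slides that held both groups, at -1.03, -0.56 and -0.23, each with 1 untreated array. Slc1a2 ranged from 5.19 to 6.39 with a median of 5.85. The mean differed by -0.55 (95% interval -1.17 to 0.06), with an adjusted p of 0.51, and by -0.20 with array weights (adjusted p 0.53 by limma). For 1 of its dimmer probes all 6 arrays were below all untreated arrays, with a difference of -0.74 and an adjusted p of 0.48.

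Aqp4, the water channel of astrocyte end-feet, had 2.90, 2.80 and 2.08 in untreated arrays, 3.00, 1.42 and 1.96 at 2 weeks, and 2.26, 2.46, 3.61 and 2.51 at 4 weeks of CPZ. On regular diet it ranged from 2.75 to 3.72 with a median of 3.34, and 5 of the 6 arrays were above every untreated array. The log2 difference was 0.71 from untreated (95% interval -0.05 to 1.46, adjusted p 0.49) and 0.59 from CPZ 4 weeks (95% interval -0.10 to 1.28, adjusted p 0.26), by limma. The first was 0.45 without untreated 3 and the second 0.89 without CPZ 4 weeks 3. Under the recorded assignment both were below 0, at -0.16 and -0.44, and with array weights the difference from untreated passed the threshold at 1.07 (adjusted p 0.0068). Its 3 probes gave the same pattern, with correlations of 0.95 to 0.99 between them over the 16 arrays.

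Against CPZ 4 weeks, none of the 10 genes was called on regular diet, beside 0.00485% of 20602 genes, and by the brightest probe none had an unadjusted p under 0.05, against 26.6% of all genes. Of the 3 dimmer probes of Slc1a2, 2 had one, at -0.57 (p 0.016, adjusted p 0.13) and -0.49 (p 0.039, adjusted p 0.18) by limma. All 10 overlapped, against 8.44% of all genes that did not. The median log2 difference was -0.09, beside 0.03 over all genes. Apart from Aqp4, the genes differed between -0.45 and -0.01. For S100b the interval was -0.70 to 0.69 and for Kcnj10 it was -0.50 to 0.42, so that a 2-fold difference in either direction lay outside both intervals of the pooled means. The 6 S100b levels on regular diet were not spread around their mean, with 4.81 to 5.17 on 3 arrays and 6.13 to 6.22 on the other 3, below and above the 4-week mean of 5.61, so this interval describes the group as pooled. The test of the study's methods, run on the same values, called none of these genes in any comparison either.

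The 2 glutamate transporters were also set against each other. Within each array, the level of Slc1a3 minus that of Slc1a2 was -2.60, -2.79 and -3.14 in untreated mice, -1.10, -2.09 and -0.62 at 2 weeks, and -1.29, -2.41, -1.23 and -2.02 at 4 weeks. On regular diet it was -1.09, -0.29, -0.90, -2.39, -2.28 and -2.25 on arrays 1 to 6, so 3 arrays lay close to the untreated ones. All 13 arrays of mice that had received CPZ lay above all 3 untreated arrays with this, the brightest, probe of Slc1a2. With the other 3 probes, 13, 12 and 11 of the 13 did, so the separation depended on the probe. With files as recorded, 1 of the 13 did with the brightest probe. The 2 levels come from probes of different strength, so only the change of their difference can be read. This contrast was chosen after its values were seen and was given no test.

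**Figure D3:**
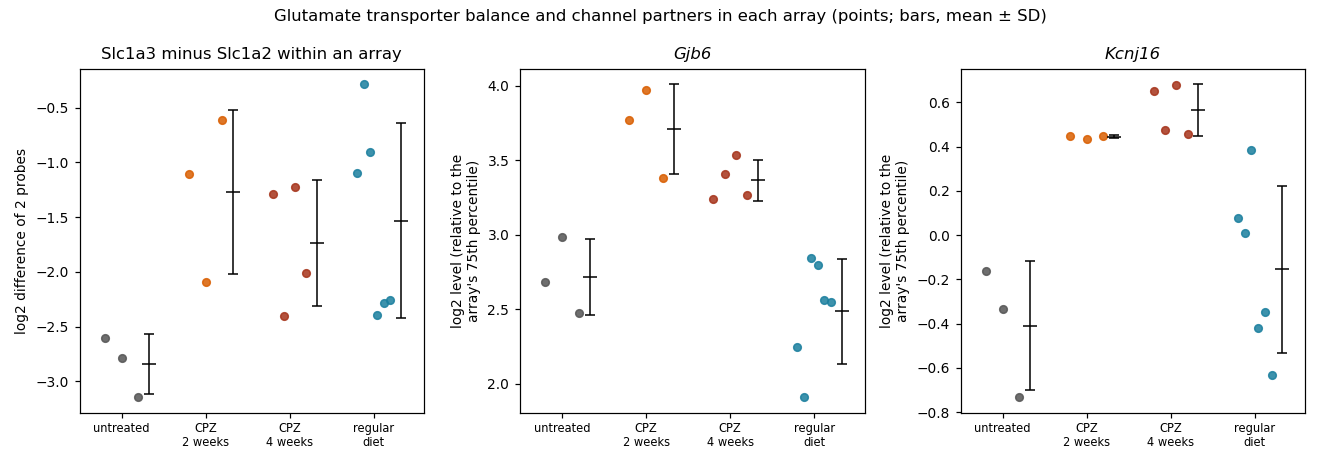
Left, the log2 level of Slc1a3 minus that of Slc1a2 within each of the 16 arrays; middle and right, the log2 levels of Gjb6 and Kcnj16, relative to the array's 75th percentile. Points are arrays and bars are mean ± SD of the group; the 3 untreated arrays lie lowest in the left panel, which uses the brightest probes, and Gjb6 and Kcnj16 are higher on all 7 CPZ arrays than on the untreated arrays.

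The partners of these proteins were followed in lists of their own. Gjb6, the second connexin of astrocytes beside Gja1, had levels of 2.69, 2.98 and 2.47 in untreated arrays, 3.77, 3.98 and 3.38 at 2 weeks and 3.24, 3.41, 3.54 and 3.27 at 4 weeks. On regular diet it ranged from 1.91 to 2.85 with a median of 2.56. All 7 CPZ arrays were above all untreated and all regular diet arrays. The share of all genes with this pattern, which Kcnj16 below also had, was not computed. Of all genes, 8.1% were above untreated on every array at 2 weeks and 5.27% at 4 weeks. On regular diet 3.47% were below CPZ 4 weeks on every array. At 2 weeks Gjb6 differed from untreated by 1.00 on the log2 scale, with an adjusted p of 0.10 by limma. At 4 weeks it differed by 0.65 (adjusted p 0.25). Regular diet differed from CPZ 4 weeks by -0.88 (adjusted p 0.081), and none of these passed the threshold. These 3 differences had the opposite sign under the recorded assignment, at -0.32, -0.80 and 0.68.

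Kcnj16, which forms mixed channels with Kcnj10, was likewise higher on all 7 CPZ arrays than on every untreated and regular diet array. It had -0.16, -0.33 and -0.73 in untreated arrays, 0.45, 0.44 and 0.45 at 2 weeks, and 0.65, 0.48, 0.68 and 0.45 at 4 weeks. On regular diet it ranged from -0.63 to 0.39 with a median of -0.17. It differed from untreated by 0.85 at 2 weeks, with an adjusted p of 0.11 by limma, and by 0.97 at 4 weeks (adjusted p 0.075). Regular diet differed from CPZ 4 weeks by -0.72 (adjusted p 0.089). With files as recorded they were -0.37, -0.60 and 0.76. Gja1 and Kcnj10 themselves overlapped between groups in all 4 comparisons.

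Of the 41 genes of the 6 partner lists, groups did not overlap for 13 at 2 weeks, 6 above and 7 below untreated, against 16.7% of all genes. At 4 weeks they did not overlap for 8, 4 above and 4 below, against 9.7%. On regular diet they did not overlap for 2 against untreated (8.53% of all genes) and for 3 against CPZ 4 weeks (8.44%). Among the direct partners that did overlap at both CPZ times were the end-foot proteins Mlc1 and Hepacam, the glutamine transporter Slc38a3 and the GABA transporter Slc6a11. At 2 weeks their differences lay between -0.26 (Hepacam) and 0.54 (Mlc1), and at 4 weeks between -0.37 (Hepacam) and 0.64 (Mlc1). Gfap, the intermediate filament of reactive astrocytes, had 3.53, 3.00 and 2.25 in untreated arrays, 4.92, 3.53 and 3.86 at 2 weeks and 3.47, 3.88, 4.99 and 3.89 at 4 weeks. On regular diet it ranged from 4.23 to 4.58, above every untreated array, with a log2 difference of 1.48 and an adjusted p of 0.070 by limma, and of -0.21 under the recorded assignment.

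By list, no partner gene was called in any of the 4 comparisons. At 2 weeks, an unadjusted p under 0.05 was reached by 0 of 8 genes of water channel anchoring and end-feet, 1 of 7 of the potassium and sodium pump, 3 of 10 of glutamate and glutamine, 1 of 4 of GABA and glycine uptake, 4 of 5 gap junction partners and 2 of 7 of acid-base and lactate transport, against 9.53% of all genes. In the same order of lists, the numbers of genes were 0, 1, 1, 1, 2 and 2 at 4 weeks (10% of all genes), 0, 1, 2, 0, 0 and 0 on regular diet against untreated (10.6%), and 1, 3, 1, 0, 1 and 0 on regular diet against CPZ 4 weeks (26.6%). At 2 weeks, the 4 gap junction genes did not share a direction, since 2 were higher and 2 lower. One of the lower ones was Gjb1, a connexin of oligodendrocytes named after its values were seen, with a log2 difference of -2.42 and an adjusted p of 0.16. The medians of the 6 lists lay between -0.52 and 0.36.

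Genes of reactive astrocytes were followed as a list of 18, of which 16 were tested. Of the 16, 1 (Ptx3, named after its values were seen) was well above background on no untreated array and so entered through the other groups. At 2 weeks 15 of the 16 tested genes were higher at an unadjusted p under 0.05, with a median log2 difference of 1.88, and at 4 weeks 9 of 16 with a median of 1.39, against 4.5% and 5.2% of all genes that were higher. On regular diet 14 of 16 were higher with a median of 1.97, against 6.28% of all genes that were higher. Without Ptx3 these counts were 14, 8 and 13 of 15. Called higher on regular diet were 4 of the 16 (Serpina3n, Cd44, S1pr3 and C3), against 0.854% of all genes. Some of these markers, such as C3, are also made by microglia. The microglia list was higher in the same 3 comparisons, with medians of 0.76, 1.48 and 2.05 and with 4, 7 and 8 of its 11 genes higher at an unadjusted p under 0.05. No reactive gene was called at 2 or 4 weeks. The microglia list had 1 gene called higher at 4 weeks (0.167% of all genes called) and 0 at 2 weeks and on regular diet. Its summed level was 4.88 to 5.93 in untreated arrays, 5.50 to 6.75 at 2 weeks, 6.23 to 7.52 at 4 weeks and 6.43 to 9.81 on regular diet, and its part in the reactive list was not tested. Without regular diet arrays 1 and 2, the median difference from untreated was 1.08 for the microglia list and 1.54 for the reactive list. At an unadjusted p under 0.05, 7 of 11 microglia genes and 11 of 16 reactive genes were then higher, against 4.36% of all genes, and 2 and 0 were called, against 0.776%. Under the recorded assignment the median of the reactive list was 0.02, -0.76 and -0.03 in the 3 comparisons. It then had 0 of 16 genes higher at an unadjusted p under 0.05, where the share of all genes was also low, at 0.556%, 0.789% and 3.78%. The other astrocyte markers, a list that also holds Gfap, had medians of -0.09 at 2 weeks, 0.05 at 4 weeks and -0.26 on regular diet over 14 genes, and 3, 2 and 4 of them had an unadjusted p under 0.05, against 9.53%, 10% and 10.6% of all genes. Gfap had the highest difference of that list in each of these comparisons, at 1.18, 1.13 and 1.48.

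The 10 genes did not vary as 1 block. Over the 45 pairs, Pearson's r over the 16 arrays ranged from -0.54 (Slc1a3 with S100b) to 0.93 (Slc1a3 with Aldh1l1), with a median of 0.32, and 13 pairs were below 0. Gja1 with Kcnj10 had 0.89, Slc1a2 with Glul 0.89, Kcnj10 with Atp1b2 0.83 and Glul with S100b 0.80. Slc1a2 with Slc1a3 had -0.41. These arrays share groups, slides and composition, so the values describe the set and were given no p.

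**Figure D4:**
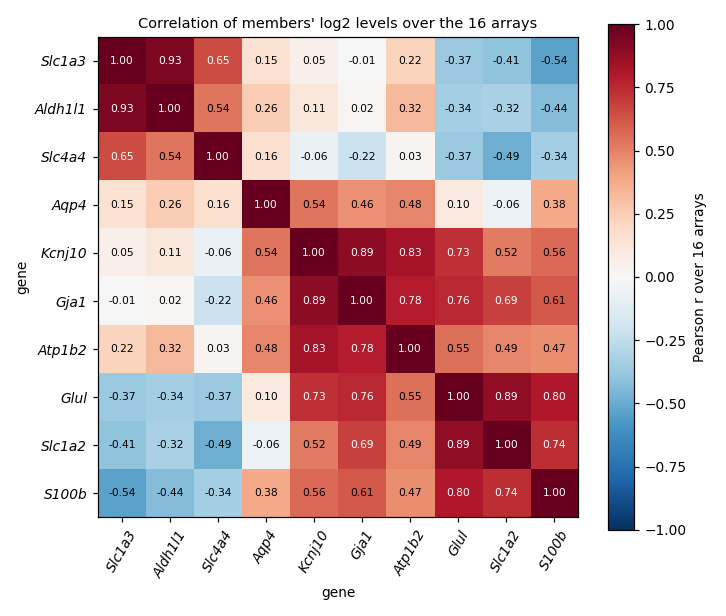
Pearson's r between the log2 levels (brightest probe) of each pair of the 10 genes over the 16 arrays, from -1 in blue to 1 in red. Slc1a3 and Aldh1l1 form 1 pair at 0.93, and Slc1a2, Glul and S100b correlate with each other and below 0 with that pair.

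Levels of other cell types moved with some of these genes. Gja1 followed the summed level of the choroid plexus and ependyma list over the 16 arrays (r = 0.94), as did Kcnj10 (0.85) and Atp1b2 (0.82). Gja1 was lowest, at -0.87, on CPZ 4 weeks 1, where that list was lowest at 1.87, and highest, at 0.60, on CPZ 4 weeks 3, where the list was highest at 6.23. The corresponding r was 0.05 for Slc1a3, 0.08 for Aldh1l1 and 0.54 for Aqp4. Of the 5 lists compared in this way, Aqp4 had its largest r with the neuron list, in the opposite direction (r = -0.70). That list had a summed level of 7.78 to 8.23 in untreated arrays, 6.999 to 8.42 at 2 weeks, 7.72 to 8.62 at 4 weeks and 7.14 to 8.07 on regular diet. All 12 of its genes had a difference below 0 on regular diet, with a median of -0.41 against untreated and -0.52 against CPZ 4 weeks. Those lower at an unadjusted p under 0.05 were 1 of 12 (4.3% of all genes) and 5 of 12 (11.1%). With the myelin list, r was 0.76 for Gja1, 0.74 for S100b, 0.72 for Kcnj10 and 0.66 for Glul, so that this relation was not particular to S100b. Slc1a3 and Aldh1l1 followed the reactive astrocyte list (r = 0.84 for both) and, less closely, the microglia list (0.65 and 0.71). With the same lists in this order, r was also above 0 for Slc4a4 (0.75 and 0.55) and Aqp4 (0.44 and 0.49). It was below 0 for Slc1a2 (-0.59 and -0.60), Glul (-0.54 and -0.56), S100b (-0.42 and -0.34) and Gja1 (-0.10 and -0.30). The part of the dissection and of other cells in these levels was not tested.

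**Figure D5:**
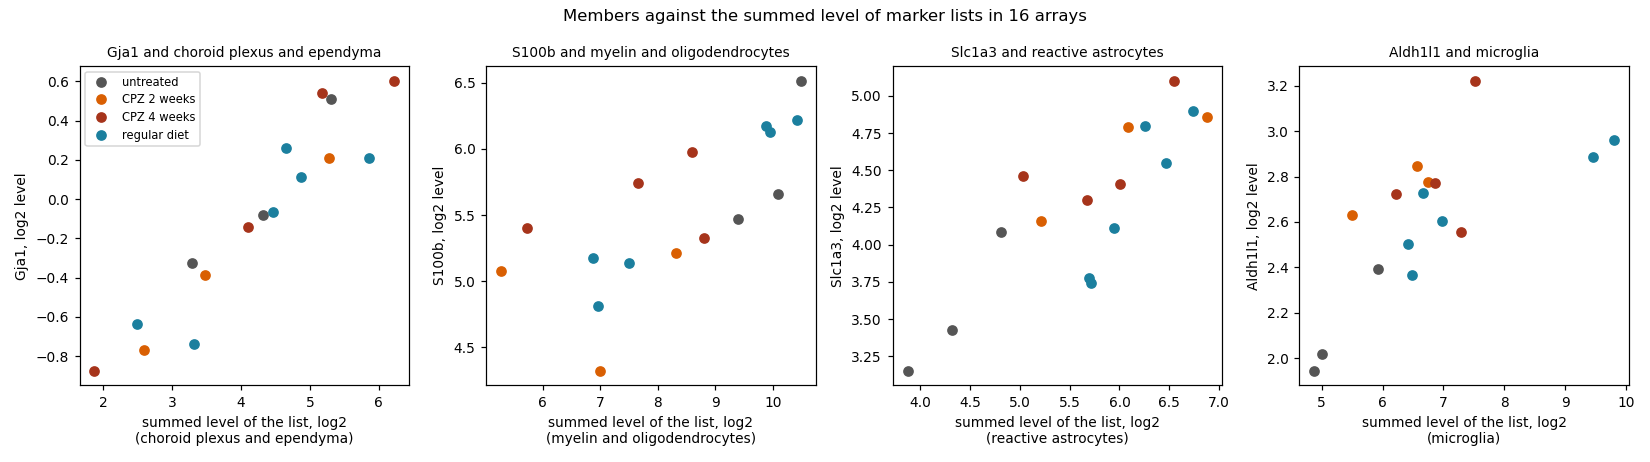
Log2 level of 4 genes in each of the 16 arrays (vertical axes) against the log2 of the summed level of a marker list (horizontal axes), coloured by group. Gja1 climbs with the choroid plexus and ependyma list (r = 0.94), S100b with the myelin list (0.74), Slc1a3 with reactive astrocyte genes (0.84) and Aldh1l1 with microglia genes (0.71).

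Genes whose pattern was much like the mean of the 10, over the same 16 arrays and among 12552 named genes above background on every array, were Mia (r = 0.93), Plac9a (0.92), Rarres2 (0.92) and Ndp (0.90). Rarres2 was also on the choroid plexus and ependyma list.

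Within a gene, levels varied most for Aqp4, from 1.42 to 3.72 over all arrays, and S100b, from 4.32 to 6.52, and least for Atp1b2, from 1.87 to 2.88. Genes with several probes gave like patterns for Aqp4 and Glul (r = 0.94 between the 2 Glul probes), a wider spread for Slc1a2 (0.60 to 0.96 among 4 probes) and a weak one for Slc4a4 (0.27 to 0.58 among 3 probes). All values of the 3 Slc4a4 probes lay below the 75th percentile, from -3.44 to -0.98.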

How the data were processed

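The authors deposited 1 scanner file per array and a table of processed values for the series. The deposited intensities are linear, background-subtracted processed signals that the authors extracted with Agilent Feature Extraction. The labels give version 11.0.1.1, whereas the study's methods name an earlier version. The deposited value table is on a log2 scale, scaled to the 75th percentile and centred on the median of the untreated arrays, as set by comparison with the scanner values. The number of arrays limits the precision.

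Each scanner file was assigned to the sample in whose table column its values recur (best r at least 0.9996, next best at most 0.839, over 32082 probes). Control spots and flagged outlier spots were left out and spots of a probe averaged. Of 41174 probes, 27479 (66.7%) were named through their accession and RefSeq. Log2 processed signals, scaled to the 75th percentile within an array, were fitted with limma 3.58.1 (R 4.3.3), with 10 arrays for CPZ against untreated (27495 probes) and 16 for regular diet (27775 probes). Probes were kept if no array of some group failed the scanner's test against background. P-values were adjusted over all probes tested, and a gene counted by its brightest tested probe. Differences are given singly for genes with an unadjusted p under 0.1 in the comparison, and otherwise as ranges. Summed levels of a list are the log2 of the sum of its genes' levels on the linear scale.

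All 10 genes were named with every probe, and genes of other lists only as direct partners, as Gfap, when called, or where the text says otherwise. Genes with a similar pattern were taken from the 5 with the highest r. Some items that these rules name are not reported here. The genes and lists were chosen with earlier results of these data known. The methods give 3 to 6 mice for each condition, whereas the labels themselves do not say that samples of a group were separate animals. The scripts were tested on simulated data. Alternatives covered normalization, filters, slide, replicate number, single arrays, the value table, the recorded assignment, the fit, the test of the study's methods (ANOVA and Tukey) and the mean of a gene's probes. Normexp on the median signal, array weights, leaving out 3 arrays or regular diet arrays 1 and 2, and the recorded assignment for lists and partners were added after seeing the data.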

Additional observations from a re-analysis of the deposited data

Results flagged for a closer look

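A single array lay far from the rest of its group for 1 of 4 Slc1a2 probes. On CPZ 4 weeks 3, that probe had a log2 level of 0.92, and the nearest of the other 3 arrays had 2.35. The same array had 6.33, 4.99 and 2.86 for the other 3 Slc1a2 probes on the log2 scale. It was 1 of 38 groups of arrays checked in this way, and chance alone marks about 1 in 20.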

How the results depend on the processing

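None of the 10 genes was called in any comparison under quantile normalization, median scaling, no filter, the stricter filter, the slide as a random block, the replicate block, the value table, the recorded assignment, other sets of arrays in the fit, the study's test, the mean of a gene's probes, normexp on the median signal, the 3 arrays or the 2 regular diet arrays left out together, or any left-out array. The exceptions were the slide as a fixed block, which called 1 gene at 4 weeks (Slc1a3), and array weights. Array weights called 2 at 2 weeks (Slc1a3 at 1.497 and S100b at -1.27), 1 at 4 weeks (Slc1a3 at 1.05) and 1 on regular diet against untreated (Aqp4 at 1.07), and the cause was not tested. The same weights moved Glul from -0.67 to -0.15 and Slc1a2 from -0.55 to -0.20 on regular diet against untreated. They also gave an adjusted p under 0.05 with less than a 2-fold difference to Aldh1l1 in the 3 comparisons with untreated (0.85, 0.78 and 0.60), to Glul at 2 weeks (-0.67) and to Slc1a3 on regular diet (0.87).

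Of the 12 differences given singly, 8 changed sign under the recorded assignment of scanner files and none under another setting. Under that assignment, Slc1a3 was -0.37 at 2 weeks, -0.68 at 4 weeks and -0.13 on regular diet against untreated, S100b was 0.56 at 2 weeks, and Aldh1l1 was -0.29 at 4 weeks. Aqp4 was -0.16 and Slc1a2 was 0.059 on regular diet against untreated, and Aqp4 was -0.44 on regular diet against CPZ 4 weeks. Without changing sign, Aldh1l1 was 0.024 at 2 weeks and 0.044 on regular diet, and Glul -0.017 and -0.25. The slide as a fixed block moved Glul to -1.14 at 2 weeks and Aqp4 to 0.35 on regular diet against CPZ 4 weeks, median scaling moved the latter to 0.29, and the value table moved Slc1a2 to -0.35 on regular diet against untreated, as leaving out regular diet arrays 1 and 2 did to -0.34. Under the recorded assignment, the median of the 10 genes was -0.32 at 4 weeks. The other 28 differences, which lay between -0.53 and 0.47, changed sign in 107 of 812 recomputations. When each array was left out in turn, the median of the 10 genes ranged from -0.43 to 0.00 at 2 weeks, -0.14 to 0.26 at 4 weeks, -0.13 to 0.27 on regular diet against untreated and -0.22 to -0.03 against CPZ 4 weeks.

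Median scaling moved every difference by -0.16 at 2 weeks, 0.12 at 4 weeks, -0.18 on regular diet against untreated and -0.30 against CPZ 4 weeks. The number of all genes called depended on the setting: from 43 it ranged between 0 and 1374 at 2 weeks, from 34 between 0 and 1465 at 4 weeks, from 176 between 0 and 845 on regular diet against untreated, and from 1 between 0 and 1430 against CPZ 4 weeks, in each case highest under array weights. With 1 array left out, the same counts ranged from 7 to 64, from 0 to 147, from 4 to 195 and from 0 to 1435, the last without CPZ 4 weeks 1.

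Replicate numbers did not pair the samples: deviations of same-numbered arrays correlated from -0.81 to 0.34, above 0.1 in 5 of 19 pairs. With the replicate block, Slc1a3 differed by 1.05 at 2 weeks (adjusted p 0.53, limma), none of the 10 genes was called, and all genes called were 0 at 2 weeks, 0 at 4 weeks and 19 on regular diet. Normexp on the mean signal was not run, since the files used here hold the median signal.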

Other observations

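On regular diet, 9 of the 10 genes fell, by their brightest probe, into 2 sets of arrays without overlap, 3 higher on arrays 1 to 3 and 6 higher on arrays 4 to 6, where 26.1% of all 20602 genes did not overlap. The labels do not separate these arrays, and the sets were seen in the values and given no test. S100b was 5.17, 4.81 and 5.14 on arrays 1 to 3 and 6.17, 6.13 and 6.22 on arrays 4 to 6. Slc1a3 was 4.55, 4.90 and 4.80 on arrays 1 to 3 and 3.77, 4.11 and 3.74 on arrays 4 to 6. Slc1a2 was 5.64, 5.19 and 5.70 on arrays 1 to 3 and 6.17, 6.39 and 6.00 on arrays 4 to 6. Glul was 6.00, 5.70 and 6.14 on the first 3 arrays and 6.53, 6.49 and 6.73 on the others, and Aldh1l1 was 2.89, 2.96 and 2.73 on the first 3 and 2.36, 2.61 and 2.50 on the others. Gja1 was -0.64, -0.74 and -0.07 on the first 3 and 0.21, 0.26 and 0.11 on the others, and Kcnj10 was 3.48, 3.40 and 3.52 on the first 3 and 3.71, 3.74 and 4.09 on the others. Atp1b2 was 2.30, 2.23 and 2.37 on the first 3 and 2.71, 2.46 and 2.76 on the others, and Slc4a4 was -1.35, -1.58 and -1.48 on the first 3 and -2.01, -1.73 and -1.69 on the others. The myelin list summed to 6.88, 6.97 and 7.51 on arrays 1 to 3 and to 9.87, 9.95 and 10.4 on arrays 4 to 6. The reactive astrocyte list summed to 6.46, 6.74 and 6.25 on arrays 1 to 3 and to 5.69, 5.94 and 5.72 on arrays 4 to 6. Aqp4, at 3.36, 3.32, 2.75, 3.24, 3.41 and 3.72 in the same order, did not fall into these sets.

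Slc6a9, the glycine transporter of glia, named after its values were seen, differed from untreated by -1.74 at 2 weeks and -1.50 at 4 weeks on the log2 scale, with adjusted p-values of 0.091 and 0.11 by limma that did not pass. Slc7a11, the cystine and glutamate exchanger, also named after its values were seen, differed by 2.12 at 2 weeks and 0.90 at 4 weeks, with adjusted p-values of 0.14 and 0.62.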
